A study of Arabidopsis thaliana with 6 samples.

Results

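OPCL1 (locus AT1G20510) encodes OPC-8:0 CoA ligase, and 6 further Arabidopsis genes encode acyl-CoA ligases related to it. The group was set by gene name and locus, with no measured value in the rule, though earlier results of these data were known when it was chosen. It holds AT1G20480, AT1G20490, AT1G20500, AT4G05160, AT5G38120, AT5G63380 and OPCL1 itself. All 7 had a probe set that the platform annotation gives to that gene alone, among 13355 genes with such a probe set and 22746 probe sets tested. Each of the 7 had a single such probe set, so no choice between probe sets was needed. The gene table lists AT5G38120 under the symbol 4CL8, and it is called by its locus below.

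Whole Col 0 seedlings were raised for 14 days in liquid medium with mineral salts and 2% dextrose, gently shaken under constant light, and received either chitooctaose, a purified fragment of fungal chitin, or water. Both were added as 20 µl to 10 ml of medium, the chitooctaose to a final 1 µM, and seedlings were frozen 30 min later. Titles and protocols, which were followed, give 30 min where the series text gives 3 min, and they name chitooctaose for 3 arrays whose brief description says water. There were 3 arrays of chitooctaose and 3 of water. The series text calls the replicates biological, and about 30 seeds were sown per tube, so an array reads a pool of seedlings.

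Jasmonates are plant hormones of wounding and defence made from a fatty acid of chloroplast membranes. The precursor leaves the chloroplast, is reduced in the peroxisome to OPC-8:0, and must be joined to coenzyme A before beta-oxidation can shorten its side chain to jasmonic acid. OPCL1 is the ligase known for that activation step. Its relatives share the fold of 4-coumarate:CoA ligases, the enzymes that activate phenylpropanoid acids for lignin and flavonoids, and the substrates of several of them are not settled.

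Among the 7 ligase genes, OPCL1 rose after chitooctaose and the other 6 did not pass the test (limma over all probe sets, Benjamini-Hochberg adjusted p under 0.05). None fell. Of all tested probe sets, 5.04% passed, 4.24% as rises and 0.805% as falls, so 1 called gene among 7 is a small count and is not read as a property of the group. The median log2 change of the 7 genes was -0.06, against -0.04 over all tested probe sets.

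OPCL1 stood at intensities of 237, 246 and 234 in the water arrays and at 824, 730 and 886 in the chitooctaose arrays. The groups were far apart, and every chitooctaose array was higher than any water array. The means were 239 ± 6.12 in water and 813 ± 78.2 in chitooctaose (SD, n = 3), a ratio of 3.39 with a 95% confidence interval of 2.95 to 3.90. On the log2 scale the change was 1.76 (SE 0.08, adjusted p = 0.000118, limma). Of all tested probe sets, 1.57% had a larger log2 change. The arrays of 1 treatment differed little for OPCL1, with a coefficient of variation of 2.56% in water and 9.62% in chitooctaose. In whole seedlings, more cells that express a gene and more RNA per cell cannot be told apart.

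**Figure D1:**
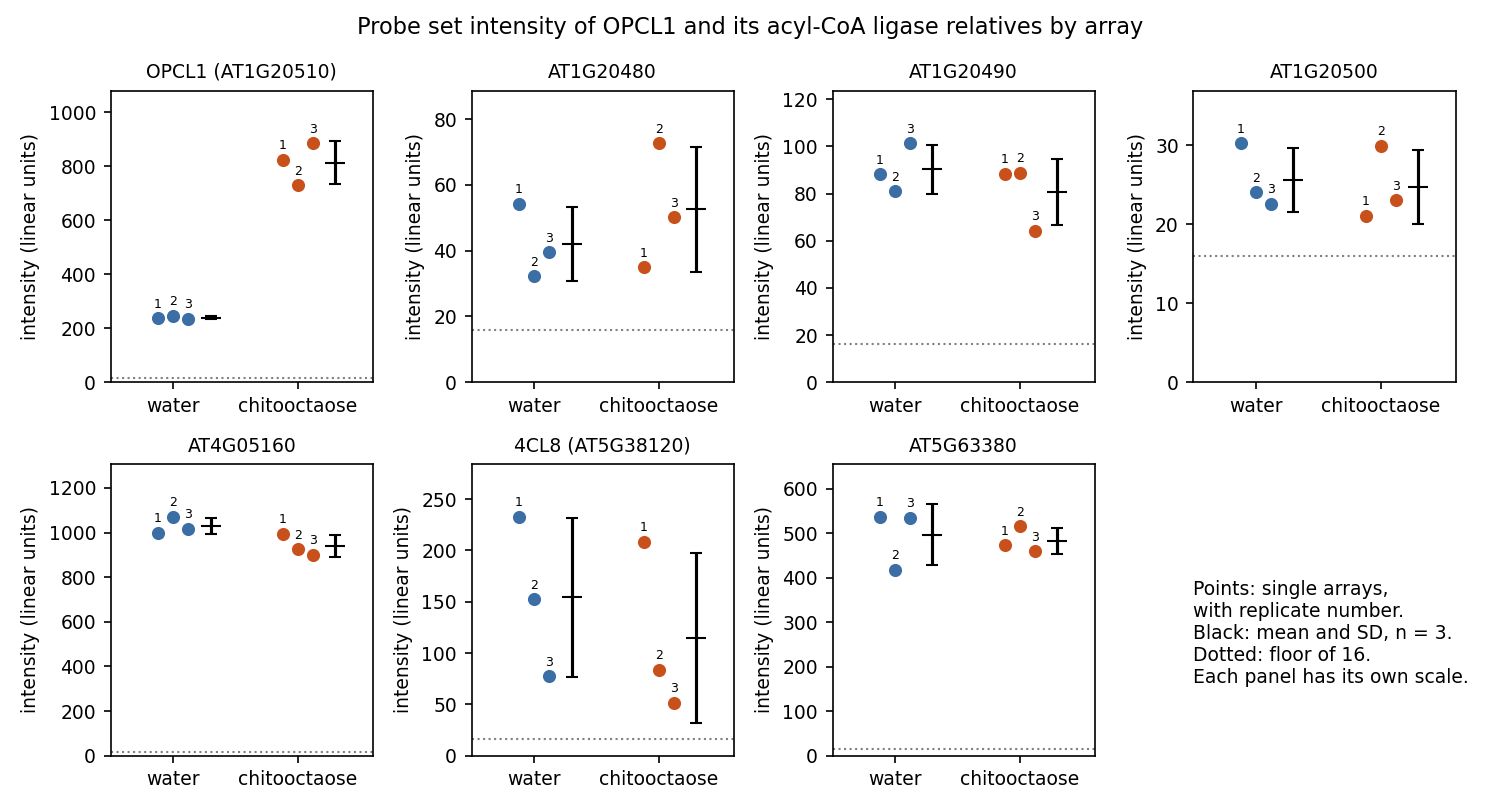
Intensity of each ligase gene's probe set (y axis, linear units, own scale per panel, from 0) on the 3 water and 3 chitooctaose arrays, with replicate numbers beside the points and mean and SD in black. OPCL1 is at 234 to 246 in water and at 730 to 886 in chitooctaose, while the groups overlap for 5 of the relatives and are narrowly apart for AT4G05160.

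AT1G20480, AT1G20490 and AT1G20500 precede OPCL1 directly in the gene order of chromosome 1, so that the 4 ligase genes form an unbroken run. No function is assigned to these 3 genes here. AT1G20490 stood at 88.2, 81.1 and 101 in water and at 88.4, 88.8 and 64.3 in chitooctaose. The groups overlapped, and the ratio was 0.886 (95% confidence interval 0.651 to 1.21, adjusted p = 0.769 in limma). AT1G20480 stood at 54.4, 32.3 and 39.5 in water and 34.9, 72.7 and 50.1 in chitooctaose. Its highest and its second lowest values were both chitooctaose arrays, and its ratio of 1.23 had an interval from 0.698 to 2.15 (adjusted p = 0.792). AT1G20500 stood at 30.3, 24.0 and 22.6 in water and 21.1, 30.0 and 23.0 in chitooctaose, close to the floor of 16 below which values were not ordered. Its ratio was 0.959 (interval 0.702 to 1.31, adjusted p = 0.939). For probe sets with a signal this close to background, a change in transcript level can be hidden by background signal.

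Along the same stretch of genes, the rise of OPCL1 had a counterpart on its other side. AT1G20520, the next protein-coding gene, stood at 24.5, 34.7 and 21.6 in water and at 144, 107 and 179 in chitooctaose. The groups did not overlap, and the log2 change was 2.41 (SE 0.27, adjusted p = 0.00466, limma). Because the water values lie near the floor, the size is not exact: with a floor of 64 the log2 change was 1.13, which is below that of OPCL1, and the call was lost (adjusted p = 0.0575). The call was also lost with the replicate number as a block (adjusted p = 0.0582). Of the 16 protein-coding genes taken as flanks of the run, 8 on each side, 9 had a value here, and AT1G20520 was the only gene of these 9 to pass the test. The adjusted p of the other 8 ran from 0.243 to 0.993. COR47, a dehydrin gene of cold and drought responses in that stretch, had means of 1954 ± 435 for water and 1855 ± 207 for chitooctaose (SD, n = 3). Around AT4G05160, AT5G38120 and AT5G63380, none of 5, 10 and 6 measured flanking genes passed. The direct neighbours of AT4G05160, which are AT4G05150 and AT4G05170, had log2 changes of -0.09 and 0.13. ASF1B, a histone chaperone gene, and AT5G38130 flank AT5G38120 and had log2 changes of 0.03 and -0.08. AT5G63390, which follows AT5G63380, had a log2 change of 0.12.

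**Figure D2:**
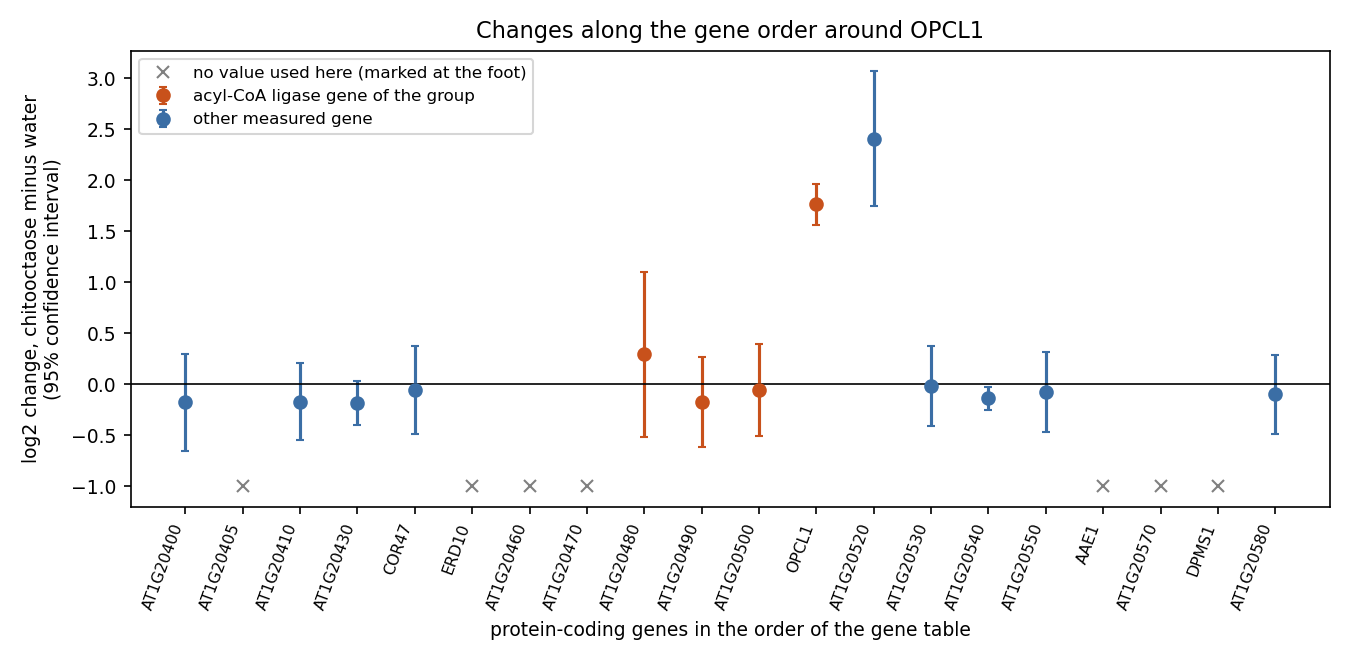
Log2 change between chitooctaose and water (y axis, points with 95% confidence intervals) of the 4 ligase genes of the run and of 8 protein-coding genes on each side, in gene order (x axis), with grey crosses at the foot for genes that have no value here. OPCL1 at 1.76 and the adjoining AT1G20520 at 2.41 stand above 0, while the 3 ligase genes before OPCL1 lie between -0.17 and 0.29.

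Of the 3 members outside that run, AT4G05160 and AT5G63380 encode ligases that, as purified proteins, have been reported to activate fatty acids and jasmonate precursors. AT4G05160 stood at 999, 1071 and 1017 in water and at 995, 926 and 901 in chitooctaose. All chitooctaose arrays were lower than any water array, by a small margin. Its ratio was 0.914 (95% confidence interval 0.831 to 1.004), and it did not pass the test (adjusted p = 0.381, limma). With OPCL1 it made 2 of 7 ligase genes whose groups did not overlap, where 19.2% of all tested probe sets had groups that did not overlap. AT4G05160 was the steadiest of the 7 genes across arrays of 1 treatment, with a residual SD of 0.06 on the log2 scale, and 91.8% of tested probe sets had a larger one. AT5G63380 stood at 537, 418 and 535 in water and at 473, 515 and 460 in chitooctaose. The groups overlapped, and the ratio was 0.978 with an interval of 0.802 to 1.19 (adjusted p = 0.950).

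AT5G38120 varied most between arrays of the same treatment. It stood at 233, 152 and 77.7 in water replicates 1, 2 and 3 and at 208, 83.7 and 51.8 in chitooctaose replicates 1, 2 and 3. In both treatments the array numbered 1 was the highest and the array numbered 3 the lowest, and the groups overlapped. The residual SD was 0.92 on the log2 scale, and 1.07% of tested probe sets had a larger one. The ratio was 0.689, with an interval from 0.234 to 2.03 (adjusted p = 0.806, limma), which spans both large falls and a doubling. Between arrays of the same number the log2 difference was -0.16, -0.86 and -0.59. With the number as a block the adjusted p was 0.344. The labels do not say what the number stands for, and the part of a shared step in this order was not tested.

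Whether the relatives responded less than OPCL1 was tested directly, by fitting the log2 difference from OPCL1 on each array for all other probe sets. The log2 change of OPCL1 exceeded that of AT4G05160 by 1.89 (95% confidence interval 1.66 to 2.12, adjusted p = 1.73e-07, limma), and that of AT5G63380 by 1.80 (1.45 to 2.14, adjusted p = 1.49e-06). Within the run on chromosome 1, it exceeded AT1G20490 by 1.94 (1.42 to 2.45, adjusted p = 1.73e-05), AT1G20500 by 1.82 (1.23 to 2.42, adjusted p = 7.44e-05) and AT1G20480 by 1.47 (0.71 to 2.23, adjusted p = 0.00178). The margin over AT5G38120 was the widest and the least exact, at 2.30 (1.14 to 3.46, adjusted p = 0.00152). Every difference holds the same OPCL1 values, so the probe sets of this fit share the scatter of OPCL1. For AT5G38120 the SE of the difference, 0.52, was below that of its own log2 change, 0.63. The intervals of this fit may therefore be too narrow and its p-values too small. In probe set signal, all 6 relatives thus changed less than OPCL1, as did 97.6% of the 22745 other probe sets by the same test. The relatives are therefore not set apart from other genes by it. As most probe sets passed, the adjustment altered the p-values of this fit little. They are not to be compared with the adjusted p of chitooctaose against water. Values near the floor can understate the change of a transcript. A rise of AT1G20480 or AT1G20500 hidden in this way would make the margin of OPCL1 over that gene too wide. Whether a probe set also binds the transcript of a related gene was not tested. The names of all 7 probe sets carry none of the suffixes by which the manufacturer marks shared sequence.

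**Figure D3:**
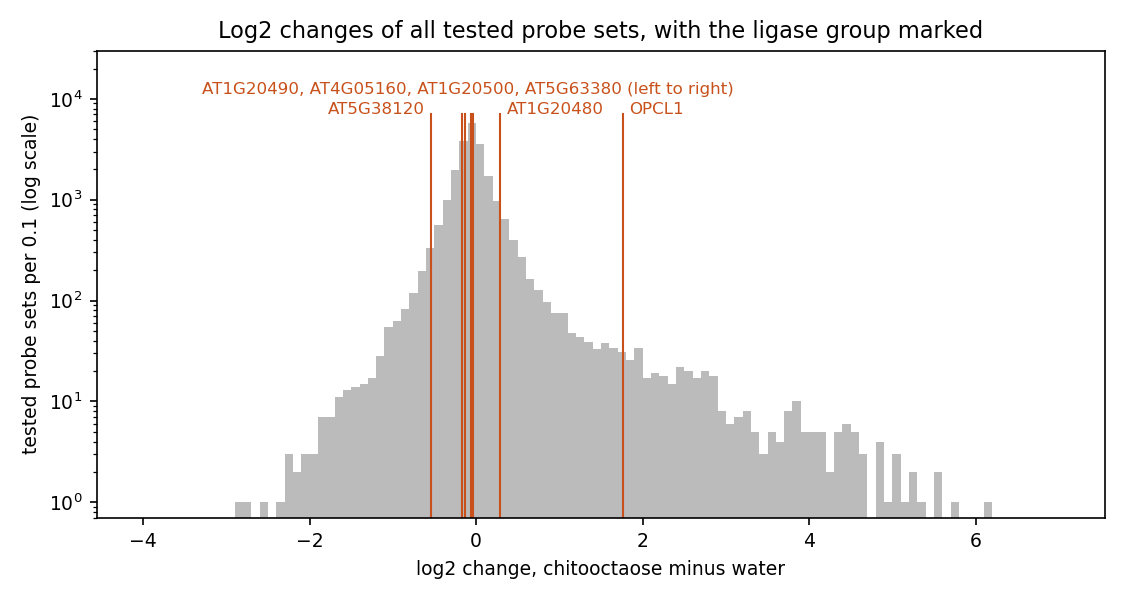
Number of tested probe sets (y axis, log scale) by log2 change between chitooctaose and water (x axis, bins of 0.1), with the 7 ligase genes as vertical lines. OPCL1 at 1.76 lies in the right tail, which 1.57% of probe sets exceed, and the 6 relatives lie between -0.54 and 0.29, in the bulk of the distribution.

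The wider superfamily of acyl-activating enzymes, which join acids to coenzyme A or to other carriers, had 9 measured genes of 34 listed outside the group. None rose or fell by the test, where 5.04% of all probe sets passed, and their log2 changes ran from -0.63 to 0.12 with a median of -0.04. ACS, an acetyl-CoA synthetase gene of the plastid, had means of 1915 ± 121 for water and 2004 ± 34.7 for chitooctaose (SD, n = 3, adjusted p = 0.711 in limma). AAE15, a gene of plastid acyl-carrier activation, stood at 522 ± 29.1 and 566 ± 29.4. AT4G19010, a ligase gene close to the OPCL1 group and known from ubiquinone ring synthesis, stood at 107 ± 7.55 and 111 ± 13.1. The lowest log2 change, -0.63, was that of AT1G21530, with 2 of 3 chitooctaose arrays at the floor.

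Few genes around OPCL1 in its own pathway had a named probe set. Of 21 other jasmonate synthesis genes only AIM1 did, a peroxisomal enzyme of beta-oxidation that acts after OPCL1. AIM1 stood at 1540, 1598 and 1722 in water and at 1690, 1663 and 1721 in chitooctaose. The groups overlapped, and its log2 change was 0.06 (SE 0.05, adjusted p = 0.709, limma). Thus nothing can be said here of the lipoxygenases, allene oxide synthase or OPDA reductase upstream of OPCL1. For beta-oxidation beyond the jasmonate genes 2 of 15 genes were measured, and neither passed. SDRB, a peroxisomal dehydrogenase/reductase gene, was at 1633 ± 33.1 and 1564 ± 35.9 (SD, n = 3), and ICL, the isocitrate lyase gene of the glyoxylate cycle, at 143 ± 26.2 and 145 ± 13.4.

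Jasmonate response genes had 3 measured members of 25 listed, and none passed. MYC3, a transcription factor that acts on jasmonate responses together with MYC2, had means of 395 ± 92.5 for water and 433 ± 27.8 for chitooctaose (SD, n = 3, adjusted p = 0.803). Its close relative MYC4 had a log2 change of -0.43 (adjusted p = 0.587). JMT, the gene of the enzyme that methylates jasmonic acid, had 2 of 3 arrays at the floor in each treatment. The other listed jasmonate response genes had no value here, so whether a jasmonate response followed cannot be said. In the phenylpropanoid pathway, to which the 4-coumarate ligases belong, 2 of 15 genes were measured. CCR2, a cinnamoyl-CoA reductase gene that acts on the products of such ligases, stood at 36.7, 36.3 and 31.0 in water and at 123, 97.6 and 117 in chitooctaose. The groups did not overlap, and the log2 change of 1.70 (SE 0.15, adjusted p = 0.00159, limma) was 0.81 with a floor of 64, where the call remained (adjusted p = 0.0149). The transferase gene HCT, at 1354 ± 84.6 and 1202 ± 76.4 (SD, n = 3), did not pass (log2 change -0.17, adjusted p = 0.359).

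**Figure D4:**
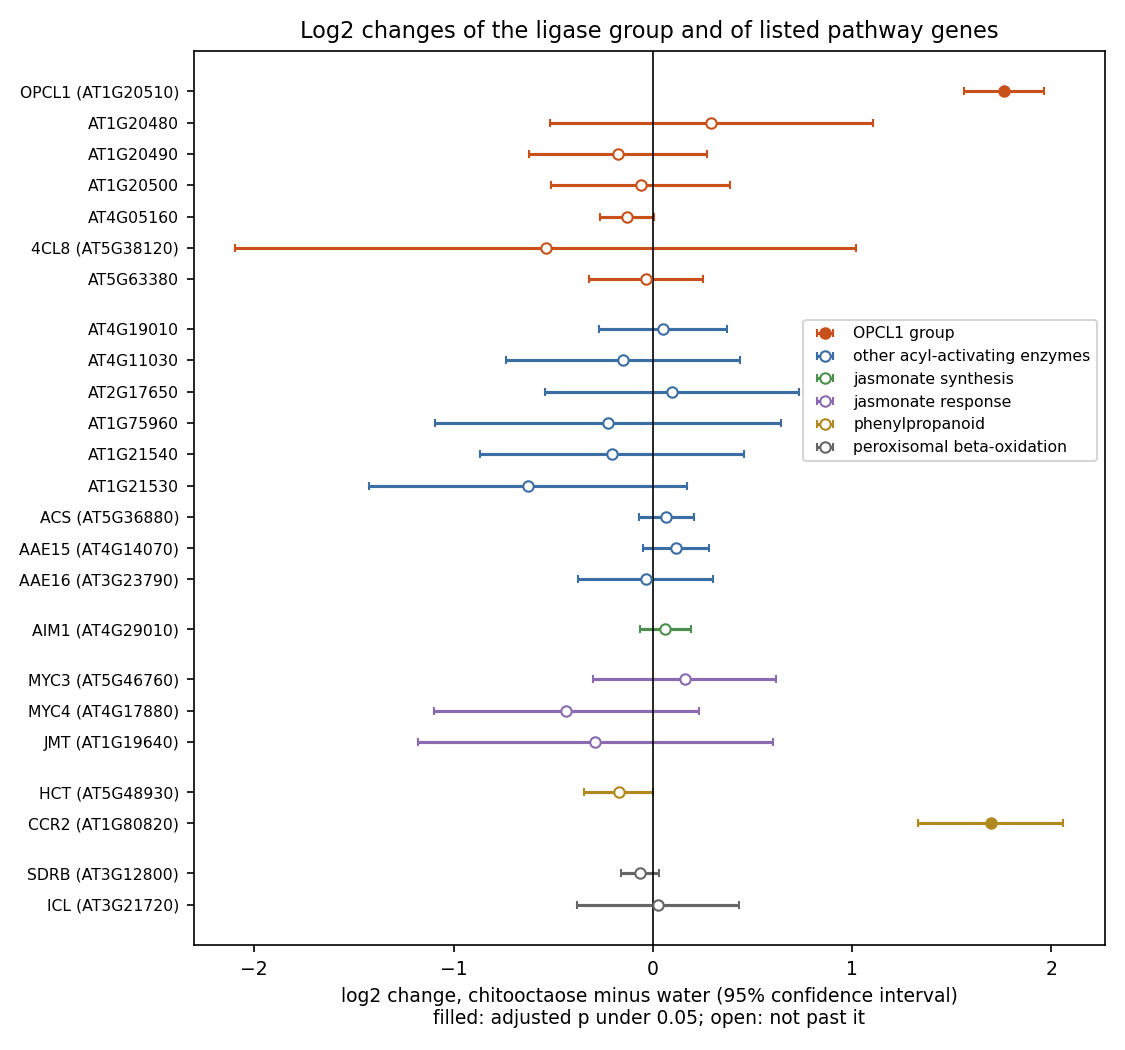
Log2 change between chitooctaose and water with 95% confidence intervals (x axis) for the 7 ligase genes, 9 other acyl-activating enzymes and the measured genes of 4 pathway lists (y axis). The filled points, OPCL1 at 1.76 and CCR2 at 1.70, passed the test, and the open points did not.

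The genes whose log2 intensities followed those of OPCL1 most closely across the 6 arrays were found by Euclidean distance between profiles, each centred on its own mean, among 13348 genes outside the group. The nearest was AT4G24160, at a distance of 0.115, which is known from lipid metabolism as a lysophosphatidic acid acyltransferase related to animal CGI-58. It stood at 315, 312 and 332 in water and at 1091, 989 and 1170 in chitooctaose. As for OPCL1, the chitooctaose array numbered 2 was its lowest of that treatment. That array also had the lowest median intensity of the chitooctaose arrays, at 157.6 against 168.0 and 168.5. Whether the scale of the array has a part in these low values was not tested. Next came AT1G02360, a chitinase family gene (0.188), AT1G69840, a gene of a band 7 membrane protein (0.195), AT1G68330 (0.203) and AT5G22690, an immune receptor gene of the TIR class (0.205). Their log2 changes lay between 1.72 and 1.86, as the measure favours genes with a change of the same size as that of OPCL1. The profiles share the 6 arrays and the treatment contrast, and likeness over them says nothing of shared function.

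Markers of shoot and root were measured for 6 genes. RCA, the Rubisco activase gene of green tissue, was at 10227 ± 120 under water and 10157 ± 414 under chitooctaose (SD, n = 3). LHCB4.3, a light-harvesting gene, was at 457 ± 68.2 and 523 ± 74.4. The brighter LHCB4.1 and LHCB4.2 had lower means under chitooctaose, from 9325 ± 132 to 9000 ± 591 and from 5579 ± 301 to 5295 ± 559. PYK10, a root beta-glucosidase gene, was at 9440 ± 75.4 and 9644 ± 406, and EXPA7, an expansin gene of root hairs, at 137 ± 22.4 and 107 ± 28.9. None of the 4 measured shoot markers of 17 listed or of the 2 measured root markers of 12 listed passed. Summed intensities of the shoot markers ran from 25199 to 25981 in water and from 23959 to 25967 in chitooctaose, and those of the root markers from 9501 to 9645 and from 9442 to 10243. The median intensity of the arrays ran from 155.7 to 169.2, and 3.81 to 4.91% of values lay at or below the floor.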

How the data were processed

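Total RNA (7 µg per sample) was made into biotinylated cRNA and hybridised to Affymetrix arrays, per the labels' protocols. The deposited intensities, some below 0, are linear and hold 1 value for each probe set on each array. How the authors summarised, background-corrected and scaled them is not given in the sources used here, so no level is compared between probe sets. Control probe sets (64) were left out. Names came from the platform annotation and the RefSeq gene table of TAIR10.1, used for names and gene order only, since the array's genome build is not stated. Of the 22746 probe sets tested, 13513 had exactly 1 gene, 503 several and 8730 none.

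Intensities under 16 were set to 16, log2 was taken, and chitooctaose was compared with water by limma 3.58.1 in R 4.3.3 (lmFit, eBayes with trend, 2-sided), with Benjamini-Hochberg adjustment over all probe sets. Ratios are powers of 2 of the log2 change, and means ± SD are of deposited intensities. The fit was tested on simulated data, with independent noise and with changes planted in brighter probe sets only. The check was on mean fitted changes, so it does not cover the intervals, the p-values or dim probe sets. Genes outside the group were named by rule: up to 4 called genes per list, or the brightest where none was called, the 5 nearest profiles and the adjoining genes. HCT, MYC4, JMT, LHCB4.1, LHCB4.2, LHCB4.3, EXPA7, ICL, AAE15, AT4G19010, AT1G21530 and COR47 were added after their values were seen. The members and lists were chosen with earlier results of these data known. No label says what replicate numbers pair: deviations of same-numbered arrays correlated at 0.05, 0.03 and -0.10, and the model has no block. No sequence is shown, as none was used here. The number of arrays limits the precision.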

Additional observations from a re-analysis of the deposited data

How the results depend on the processing

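The alternatives were floors of 1 and 64, quantile normalization, median centring, no variance trend, robust variances, no dimmest 40% of probe sets, each array left out, and the replicate number as a block. OPCL1 was the only called member under each of these 14 settings, with log2 changes from 1.70 to 1.84 and adjusted p up to 0.00505, reached with the block. Each relative stayed below OPCL1 in log2 change, past the threshold, under every setting run for that difference, with adjusted p up to 0.0112. The limits given above for the fit of differences hold for these p-values too. AT1G20480, AT1G20490 and AT1G20500 are among the dimmest 40% and had no value with those left out. The floor of 64 cannot show this difference for AT1G20500, since all its arrays are then set to 64. Its difference there is only the change of OPCL1 itself. For AT1G20480 only the chitooctaose array at 72.7 stays above that floor, so the setting adds little for this gene. The uncalled changes of AT1G20500 and AT5G63380 ran from -0.21 to 0.07 and from -0.15 to 0.03, so their sign varied with the setting. The sign is not settled for any relative, since the 95% confidence interval of each held both falls and rises. The change of AT5G38120 was -0.09 without chitooctaose replicate 3 and -1.09 without chitooctaose replicate 1.

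Over all probe sets the falls numbered 183, and 86 to 176 with 1 array left out, where fewer arrays enter the test. They numbered 265 with quantile normalization and 260 with median centring, so the share of falls depends on the scaling. With the replicate number as a block 93 fell, where the block leaves fewer degrees of freedom to the test, and the cause was not tested. Rises were fewer in these settings too: 964 as reported, 721 to 835 with 1 array left out and 754 with the block. Among the genes followed under the settings the block ended only the call of AT1G20520, as given above. Other probe sets of a member were not tried, since no member had a further probe set of exactly 1 gene. Values near the floor limit what can be said of AT1G20500 and AT1G20480.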
